A study of Mus musculus with 6 samples.

Results

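The carnitine shuttle and the acyl-CoA dehydrogenases were followed through 10 genes. They were chosen by name for their role in mitochondrial fatty acid oxidation, with earlier results of these data known. *Cpt1a*, *Slc25a20*, *Cpt2* and *Crat* move acyl groups across the mitochondrial membranes. *Acadvl*, *Acadl*, *Acadm* and *Acads* carry out the opening oxidation step of the spiral, and *Hadha* and *Hadhb* encode the subunits of the trifunctional protein. All 10 were among the 16381 genes listed with a value, and all 10 were among the 14419 genes that reached a normalized count of 10 in at least 1 sample and were tested.

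The samples were group 2 innate lymphoid cells (ILC2s), lymphocytes without antigen receptors that make type 2 cytokines in the airway. They were sorted to a purity over 95% from lungs of wild-type BALB/cJ mice, given as females aged 6 to 8 weeks, after 0.5 µg intranasal rmIL-33 per day for 3 days, and are called activated ILC2s (aILC2s). All cells were therefore from IL-33-challenged mice and were then cultured for 24 h either with 250 µM melatonin (3 samples) or with DMSO, the solvent, as vehicle (3 samples). Bulk RNA sequencing gave a normalized count per gene, an estimated read count divided by a size factor for the sample. Nothing in the labels says that the samples of a group came from separate mice, so the p-values measure only the spread between these samples, which may be technical in part.

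Long-chain fatty acids enter the mitochondrial matrix as carnitine esters. CPT1 at the outer membrane forms the ester, the carrier SLC25A20 exchanges it for free carnitine at the inner membrane, and CPT2 rebuilds the acyl-CoA inside. In the matrix, acyl-CoA dehydrogenases of overlapping chain-length preference start each round of shortening, and the trifunctional protein completes the round for long chains. Malonyl-CoA inhibits CPT1, which makes entry the regulated step of the pathway. Lipid uptake and oxidation are studied in ILC2s because these cells store and use fatty acids when activated.

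Estimated counts per sample ranged from 17056239 to 20511667, and the median log2 fold change of all tested genes was −0.00. Of the ILC2 markers 12 of 12 were listed, with a summed normalized count of 139599 to 146908 in vehicle samples and 111411 to 113620 in melatonin samples. *Gata3*, their defining transcription factor, had 17890 to 24588 normalized counts over all 6 samples and was not called. Of the 12 ILC2 markers 6 were lower, 2 higher and 4 not called by limma (24.7% of all tested genes were lower and 24.5% higher), with *Klrg1* and *Il7r* among the lower (log2 fold changes of −2.16 and −1.06) and *Il1rl1*, which encodes ST2, among the higher (0.63). The summed markers of most other cells were lower in all melatonin samples. The 5 listed of 8 T cell markers summed to 2605 to 2829 in vehicle samples and 849 to 1469 in melatonin samples, the 5 of 5 NK and ILC1 markers to 263 to 343 and 24.1 to 36.1, and the 7 of 8 myeloid markers to 1176 to 1392 and 258 to 736. The sum of the 6 listed of 7 epithelial markers overlapped between the groups, at 925 to 2268 in vehicle and 1040 to 1260 in melatonin samples, and was made up mostly of *Epcam* with melatonin (623 to 745 and 1016 to 1230). The other 5 epithelial markers were lower in all melatonin samples, and of these *Scgb1a1* had 21.5 to 1045 with vehicle and less than 3 counts in each melatonin sample, *Sftpc* 122 to 389 and 3.02 to 6.54, and *Krt8* 4.67 to 105 and 0 in each. *Pecam1*, the listed marker of 5 for stroma and endothelium, had 1001 to 1066 and 310 to 416. The 2 listed of 5 B cell markers summed to 289 to 322 and 131 to 162, and the 5 listed of 8 granulocyte and mast cell markers, which overlapped, to 12.2 to 88.7 and 3.74 to 40.2. *Cd4*, *Cd8a*, *Cd5*, *Ms4a1* and *Col1a1* were not listed. The part of other cells in the changes below was not tested, and in bulk RNA fewer cells of a type and less RNA per cell cannot be told apart.

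The melatonin samples were also not alike in sex-linked transcripts. *Xist* had normalized counts of 13.6, 7.46 and 5.81 in vehicle replicates 1, 2 and 3 and of 0, 579 and 1091 in melatonin replicates 1, 2 and 3. The Y-linked genes *Ddx3y*, *Eif2s3y*, *Kdm5d* and *Uty* were at 0 in melatonin replicates 2 and 3 and present in the other 4 samples. The mice were described as female, which goes against these values. The 2 samples without Y-linked transcripts were melatonin samples, so this difference and the treatment cannot be fully told apart. Its part in the changes below was not tested. None of the 10 genes lies on chromosome X or Y. The values of the 10 genes are given below without these 2 melatonin samples wherever a call differed.

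Promoters are printed for *Hadhb*, whose window overlaps that of *Hadha*, its partner in 1 complex with a change in the opposite direction, and for *Acads* and *Acadm*, neighbours in chain length. Whether these sequences bear on the expression values was not tested. Sequences are from RefSeq (table build GRCm38.p6), run from 250 bases before to 50 bases after the annotated start, and each was found at 1 place in GRCm39, whose coordinates are given. Of the 10 genes, 9 had an entry, and *Crat* had none. *Hadha* and *Hadhb* lie head to head, with starts at 30359978 and 30360251 on chromosome 5, 273 bases apart. Their promoter windows share 228 bases, in capitals here in the *Hadhb* promoter (chr5:30360001-30360300, plus strand).

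Hadhb: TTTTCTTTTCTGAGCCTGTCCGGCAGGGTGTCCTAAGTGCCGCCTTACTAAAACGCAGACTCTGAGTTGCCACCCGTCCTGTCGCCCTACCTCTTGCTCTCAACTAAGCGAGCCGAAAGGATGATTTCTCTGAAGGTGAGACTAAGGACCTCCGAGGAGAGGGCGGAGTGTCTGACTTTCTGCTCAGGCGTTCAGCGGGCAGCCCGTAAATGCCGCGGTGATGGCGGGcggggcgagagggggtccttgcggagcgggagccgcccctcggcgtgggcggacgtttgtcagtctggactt

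The *Acads* promoter (chr5:115257356-115257655, minus strand) is shown because this gene had the largest change of the 10, and it held none of the 5 motifs searched.

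Acads: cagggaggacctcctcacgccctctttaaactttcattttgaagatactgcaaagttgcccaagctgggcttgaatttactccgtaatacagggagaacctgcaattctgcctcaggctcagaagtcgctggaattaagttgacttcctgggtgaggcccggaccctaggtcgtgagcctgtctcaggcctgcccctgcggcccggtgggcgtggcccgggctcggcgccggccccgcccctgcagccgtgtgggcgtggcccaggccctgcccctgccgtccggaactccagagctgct

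In the *Acadm* promoter (chr3:153650231-153650530, minus strand) the capitals mark TGACCTT, the reverse complement of AAGGTCA, the core bound by estrogen-related receptors.

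Acadm: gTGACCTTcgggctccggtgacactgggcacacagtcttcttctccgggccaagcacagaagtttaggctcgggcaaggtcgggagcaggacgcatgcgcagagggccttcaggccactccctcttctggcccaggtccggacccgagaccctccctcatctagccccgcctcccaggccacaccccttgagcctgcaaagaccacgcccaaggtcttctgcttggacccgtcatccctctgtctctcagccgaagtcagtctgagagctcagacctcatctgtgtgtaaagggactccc

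Both strands of the 9 promoters were searched for 5 motifs. AGGTCA, the core hexamer of nuclear receptor sites, was found in 3 of the 9: in *Acadm* on the minus strand beginning 249 bases before the start, in *Acadvl* on the plus strand 87 bases before it, and in *Cpt1a* on the minus strand 94 bases before it. Of 32851 mouse promoters of the same length, 16.26% held it. AAGGTCA, which contains AGGTCA, was in *Acadm* alone and in 4.72% of all promoters. The direct repeat of AGGTCA with 1 base between the copies, the site of PPAR with RXR, was in 0 of the 9 and in 0.04% of all. TGACNNNGC, the core of the antioxidant response element, was in 0 of the 9 and 12.39% of all, and CACGTG, the E-box, in 0 of the 9 and 7.15% of all. These matches describe the letters of the windows.

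With melatonin, 5 of the 10 genes were higher (*Cpt1a*, *Cpt2*, *Acads*, *Acadm* and *Hadhb*), 1 was lower (*Hadha*) and 4 did not pass the test (*Slc25a20*, *Crat*, *Acadl* and *Acadvl*), by limma at a Benjamini-Hochberg adjusted p of 0.05. Over all 14419 genes tested, 24.5% were called higher and 24.7% lower. All 3 melatonin values lay above all 3 vehicle values for 6 of the 10 genes and below them for 1, against 30.0% and 30.3% of all genes. The median log2 fold change of the 10 was 0.21, with 8 positive and 2 negative. For 8 of the 10 the log2 fold change was smaller than 0.5 in either direction, and *Acads* and *Cpt2* were the exceptions.

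**Figure D1:**
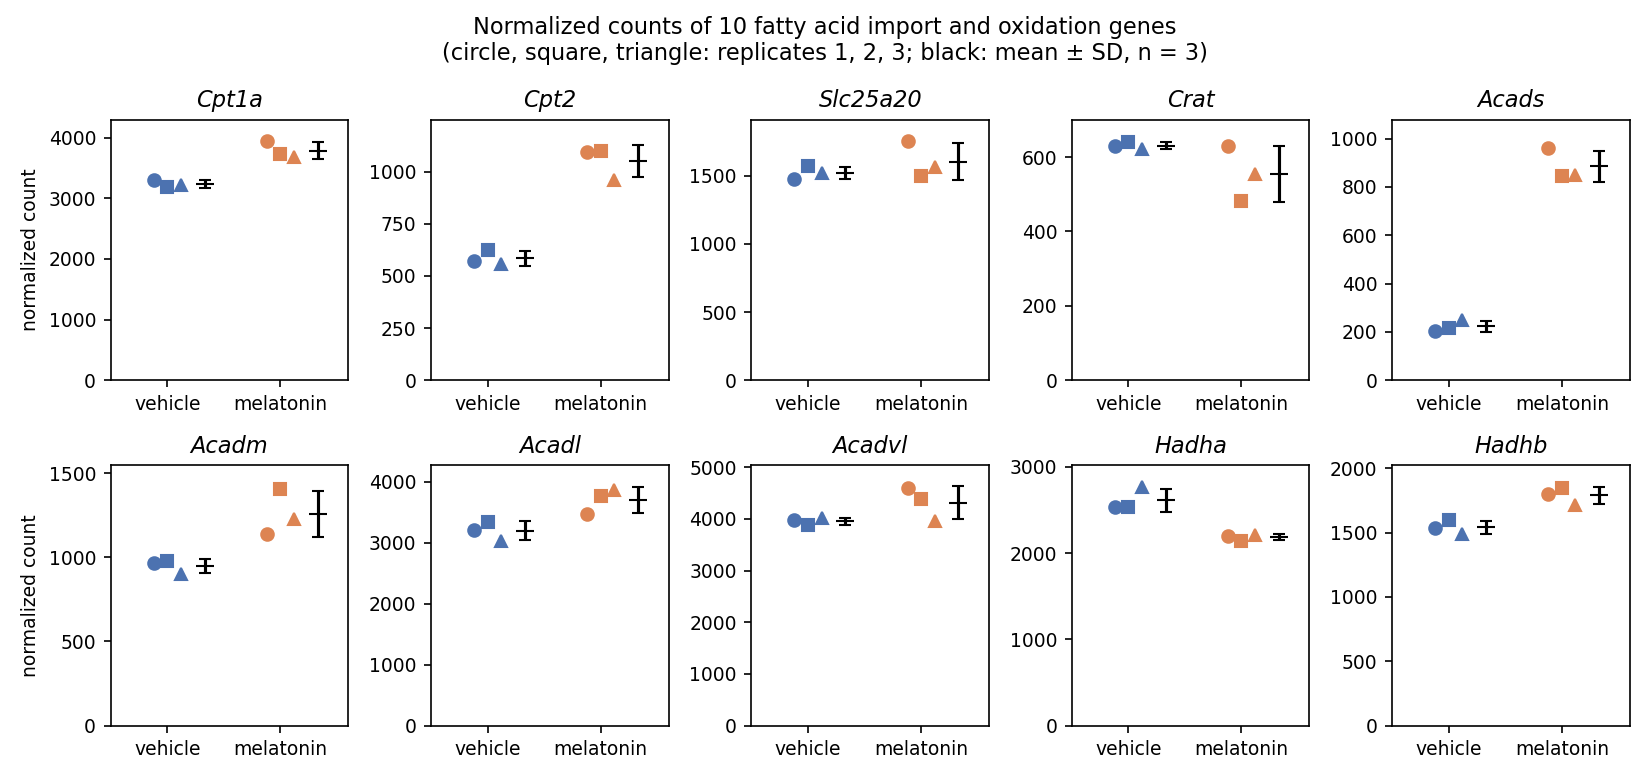
Normalized count (vertical axis, from 0) of each of the 10 genes in the 3 vehicle (blue) and 3 melatonin (orange) samples, with symbols for replicates and black bars for the mean ± SD. *Acads* stands at 203 to 248 in vehicle and 847 to 961 in melatonin samples, while *Slc25a20*, *Crat* and *Acadvl* overlap between the groups.

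Of the genes of entry, *Cpt2* rose most. *Cpt2* (ENSMUSG00000028607, chr4:107751473-107780812 of GRCm39, minus strand) encodes the carnitine palmitoyltransferase of the inner membrane. Its normalized counts were 572, 626 and 555 in vehicle samples and 1093, 1098 and 962 in melatonin samples. Every melatonin sample was far above every vehicle sample. The mean went from 584 ± 37 to 1051 ± 77 (SD, n = 3), a ratio of 1.80, and the log2 fold change was 0.84 (SE 0.10, 95% interval 0.62 to 1.07, limma adjusted p = 0.00027). The call was kept in 6 of 6 fits that left out a sample and in 11 of 11 other planned settings.

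*Cpt1a* (ENSMUSG00000024900, chr19:3371853-3437996, plus strand), which encodes the malonyl-CoA-sensitive enzyme of the outer membrane, rose by a smaller step. Its normalized counts were 3305, 3186 and 3217 with vehicle and 3940, 3735 and 3685 with melatonin. The groups did not overlap, and the mean rose by 17.0%, from 3236 ± 62 to 3787 ± 135 (SD, n = 3). The log2 fold change was 0.23 (SE 0.07, 95% interval 0.07 to 0.38, limma adjusted p = 0.025). The call did not hold without vehicle replicate 1, 2 or 3 (log2 fold changes of 0.24, 0.22 and 0.22, limma adjusted p = 0.0666, adjusted p = 0.0936 and adjusted p = 0.0749), nor with upper quartile scaling (0.18, adjusted p = 0.0611) or without the trend (0.23, adjusted p = 0.0602).

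The carrier of the inner membrane was not called. *Slc25a20* (ENSMUSG00000032602, chr9:108539250-108562760, plus strand), the carnitine-acylcarnitine translocase, had 1478, 1568 and 1522 normalized counts with vehicle and 1756, 1495 and 1562 with melatonin. Melatonin replicate 1 was the highest of the 6 samples, and the other two lay within the vehicle range. The log2 fold change was 0.07 (SE 0.09, 95% interval −0.12 to 0.27, limma adjusted p = 0.512), and no setting called it. The interval leaves room for a rise close to that of *Cpt1a*, so a difference between these genes cannot be read from the calls.

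*Crat* (ENSMUSG00000026853, chr2:30289300-30306340, minus strand) encodes carnitine acetyltransferase, which acts on short acyl groups. It had 629, 641 and 623 normalized counts with vehicle and 631, 481 and 555 with melatonin. Melatonin replicate 1 lay within the vehicle range and the other two below it. The mean was 631 ± 8.98 with vehicle and 556 ± 75.3 with melatonin (SD, n = 3), and the log2 fold change of −0.19 (SE 0.12, 95% interval −0.45 to 0.07) had a limma adjusted p of 0.194. Without melatonin replicate 1 it was −0.29 (adjusted p = 0.0376), without melatonin replicate 2 it was −0.09 (adjusted p = 0.517), and without melatonin replicates 2 and 3, those with high *Xist*, it was 0.00.

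Within a sample, the ratio of 2 genes does not depend on how samples are scaled. The ratio of *Cpt1a* to *Cpt2* was 5.78, 5.09 and 5.8 with vehicle and 3.61, 3.4 and 3.83 with melatonin, a log2 difference of −0.62. The ratio of *Slc25a20* to *Cpt2* was 2.58, 2.5 and 2.74 with vehicle and 1.61, 1.36 and 1.62 with melatonin, a log2 difference of −0.77. Both ratios were lower in all 3 melatonin samples than in any vehicle sample. In the exact two-sided permutation test both had p = 0.1, the smallest p that 3 samples against 3 allow (adjusted p = 0.12 over 6 ratios).

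**Figure D2:**
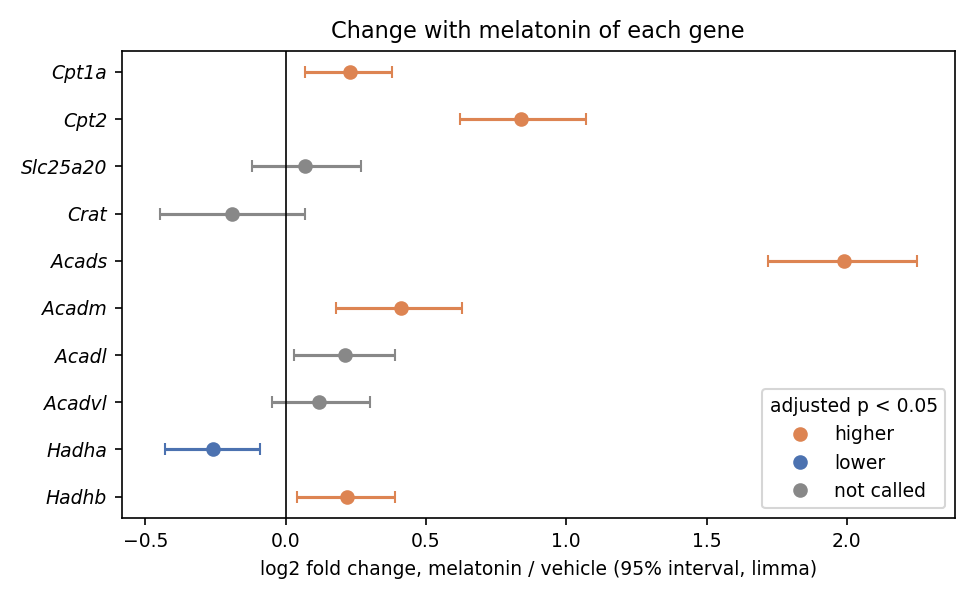
Log2 fold change of melatonin over vehicle (horizontal axis) with its 95% interval from limma for each of the 10 genes, coloured by call (orange higher, blue lower, grey not called). *Acads* at 1.99 and *Cpt2* at 0.84 stand apart from the other 8, which lie between −0.26 and 0.41.

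Among the dehydrogenases the short-chain enzyme stood apart from the others. The log2 fold changes were 0.12 for *Acadvl*, 0.21 for *Acadl*, 0.41 for *Acadm* and 1.99 for *Acads*. The intervals of *Acadvl*, *Acadl* and *Acadm* overlap each other, and that of *Acads* lies above all of them. The order of these 3 was not kept in every setting. Without both melatonin samples of high *Xist* the values were 0.22 for *Acadvl*, 0.12 for *Acadl* and 0.27 for *Acadm*, and without melatonin replicate 3 *Acadvl* and *Acadl* were both at 0.18.

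*Acads* (ENSMUSG00000029545, chr5:115248357-115257405, minus strand) encodes the short-chain dehydrogenase, which acts on butyryl-CoA. Its normalized counts were 203, 218 and 248 with vehicle and 961, 847 and 848 with melatonin. The lowest melatonin sample was more than 3 times the highest vehicle sample. The mean went from 223 ± 22.5 to 885 ± 65.4 (SD, n = 3), a ratio of 3.97, and the log2 fold change was 1.99 (SE 0.12, 95% interval 1.72 to 2.25, limma adjusted p = 1.8e-05). Of the 14419 genes tested, 205 had a log2 fold change at least as large, *Acads* included, and of the 9990 genes whose mean was 100 or more, 57 did. Leaving out single samples gave 1.92 to 2.06, and the call held in 6 of 6 such fits and in 11 of 11 other planned settings. *Acads* and *Acadm* overlap no other annotated gene. By the Gencode annotation, *Cpt2* overlaps *Czib*, *Crat* overlaps *Dolpp1* and *Ptpa*, and *Acadvl* overlaps *Dvl2*, each on the opposite strand, and reads in those stretches cannot be told apart without strand.

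*Acadm* (ENSMUSG00000062908, chr3:153627989-153650317, minus strand), which encodes the medium-chain dehydrogenase, also rose. Its normalized counts were 965, 976 and 900 with vehicle and 1139, 1408 and 1228 with melatonin. The groups did not overlap, and melatonin replicate 1 was the lowest of its group. The mean went from 947 ± 41.1 to 1259 ± 137 (SD, n = 3), a ratio of 1.33, with a log2 fold change of 0.41 (SE 0.10, 95% interval 0.18 to 0.63, limma adjusted p = 0.00934). The call held in 6 of 6 fits that left out a sample (0.32 to 0.47). Without both melatonin samples of high *Xist* the value was 0.27 and the limma adjusted p 0.0549. That fit leaves 1 melatonin sample, which is assumed to vary like the vehicle samples.

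*Acadl* and *Acadvl*, for long and very long chains, were not called. *Acadl* (ENSMUSG00000026003, chr1:66868267-66902633, minus strand) had 3218, 3348 and 3038 normalized counts with vehicle and 3468, 3770 and 3875 with melatonin. The groups did not overlap, but the log2 fold change of 0.21 (SE 0.08, 95% interval 0.03 to 0.39) missed the threshold with a limma adjusted p of 0.0517. It was called without melatonin replicate 1 (0.26, adjusted p = 0.0133) and in 5 of 11 other settings, so this gene stands at the edge of the test. *Acadvl* (ENSMUSG00000018574, chr11:69900853-69906270, minus strand) had 3973, 3874 and 4012 with vehicle and 4588, 4384 and 3968 with melatonin. Melatonin replicate 3 lay within the vehicle range, and the log2 fold change was 0.12 (SE 0.08, 95% interval −0.05 to 0.30, limma adjusted p = 0.218). Without both melatonin samples of high *Xist* it was 0.22 (adjusted p = 0.0326).

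The rise of *Acads* was also seen relative to its neighbour in chain length. The ratio of *Acads* to *Acadm* was 0.211, 0.224 and 0.275 with vehicle and 0.843, 0.601 and 0.691 with melatonin, a log2 difference of 1.58 with no overlap between the groups. The ratio of *Acadl* to *Acadm* was 3.33, 3.43 and 3.38 with vehicle and 3.04, 2.68 and 3.15 with melatonin, a log2 difference of −0.20, also with no overlap. Both had p = 0.1 in the exact permutation test (adjusted p = 0.12). The ratio of *Acadvl* to *Acadm* was 4.12, 3.97 and 4.46 with vehicle and 4.03, 3.11 and 3.23 with melatonin, and here the groups overlapped (log2 difference −0.28, exact permutation p = 0.2, adjusted p = 0.2).

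**Figure D3:**
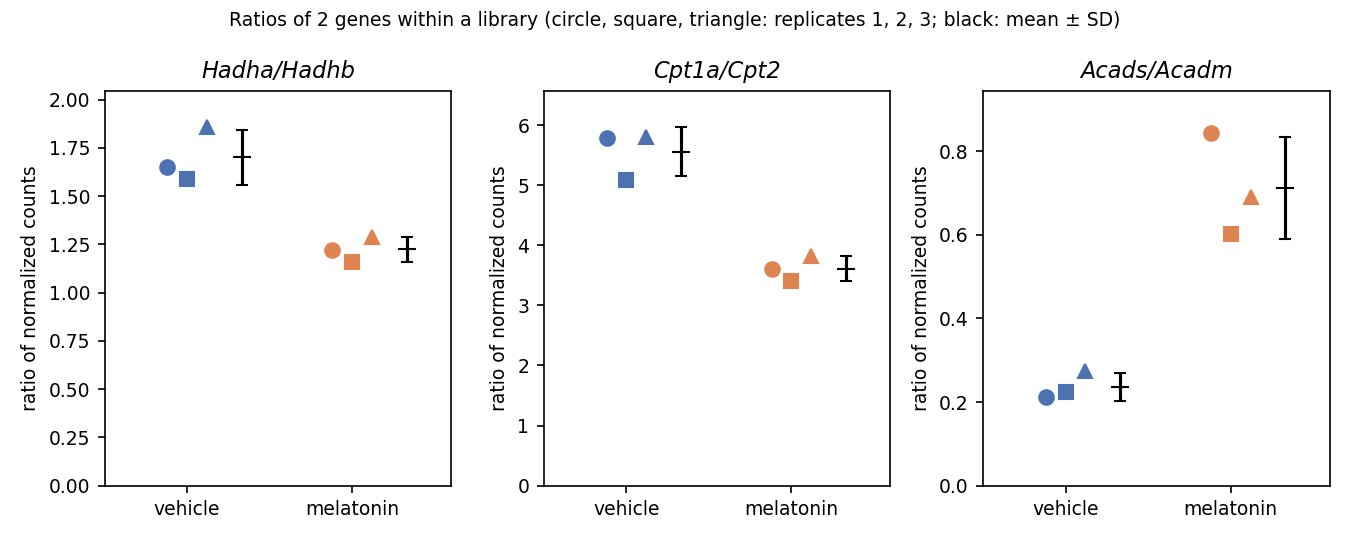
Ratio of the normalized counts of 2 genes within each sample (vertical axis, from 0, not divided by length) for *Hadha* over *Hadhb*, *Cpt1a* over *Cpt2* and *Acads* over *Acadm*, with replicates as symbols and the mean ± SD in black. In each panel the 3 vehicle and 3 melatonin samples do not overlap, with *Hadha* over *Hadhb* and *Cpt1a* over *Cpt2* lower and *Acads* over *Acadm* higher with melatonin.

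Divided by the length of annotated exons, the makeup of the 4 dehydrogenase transcripts could be compared. *Acadvl* took 49.1% ± 1.4 of their summed level per kb with vehicle and 43.3% ± 2.5 with melatonin (SD, n = 3). *Acadl* took 40.1% ± 1.5 and 37.6% ± 2.6, and *Acadm* 7.35% ± 0.24 and 7.9% ± 0.79. *Acads* took 3.17%, 3.38% and 3.92% in the vehicle samples and 12.1%, 10.5% and 11% in the melatonin samples, so that the short-chain enzyme passed from a minor to a clear component. The long-chain pair still made up most of the transcripts in every sample. The sum itself went from 2045 ± 24 to 2527 ± 54.8 normalized counts per kb (SD, n = 3).

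**Figure D4:**
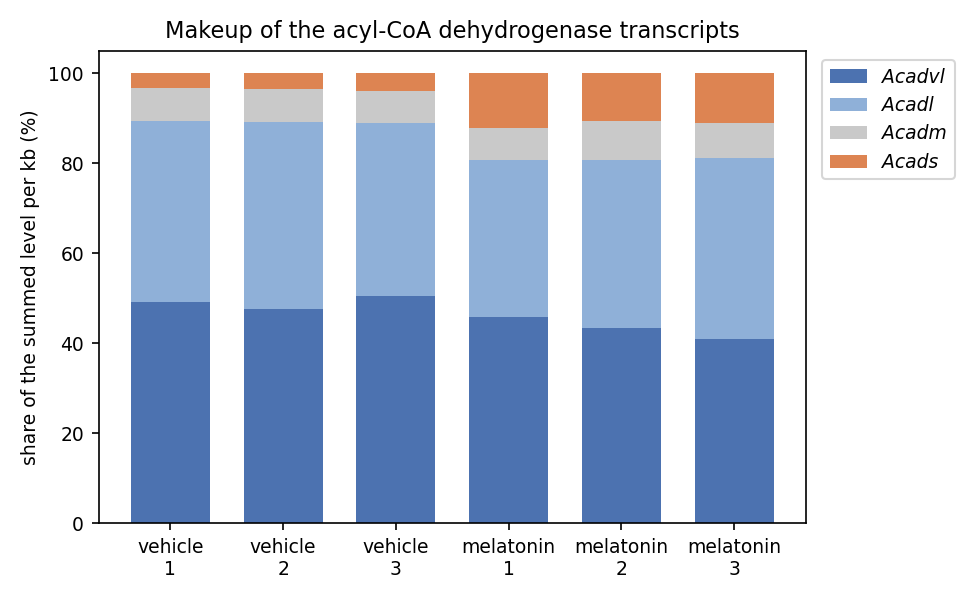
Share of *Acadvl*, *Acadl*, *Acadm* and *Acads* (stacked bars, %) in their summed level per kb of exons in each of the 6 samples. The *Acads* part, on top, is between 3.17% and 3.92% in vehicle and between 10.5% and 12.1% in melatonin samples.

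The choice of length moved some of these places. With the canonical transcript in place of all annotated exons, *Acads* went from 3.27% to 10.5% and *Acadvl* from 49% to 43.2%. By that length *Acadm* took a larger share, 12.6% with vehicle and 13.5% with melatonin, and *Acadl* took 35.1% and 32.8%. Among all 10 genes by level per kb, *Acadvl* was first and *Acadl* second in both groups with either length. *Acads* went from place 9 (71.3 ± 7.18 per kb) to place 5 (283 ± 20.9) by all exons and from place 10 (119 ± 12) to place 8 (473 ± 35) by the canonical transcript (SD, n = 3). *Crat* was last with melatonin by either length.

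The subunits of the trifunctional protein moved apart. *Hadha* (ENSMUSG00000025745, chr5:30323302-30360187, minus strand) encodes the alpha subunit, which holds the hydratase and the hydroxyacyl-CoA dehydrogenase. It had 2537, 2534 and 2767 normalized counts with vehicle and 2200, 2142 and 2206 with melatonin. All melatonin samples were below all vehicle samples, and the mean fell by 16.4%, from 2612 ± 134 to 2183 ± 34.9 (SD, n = 3). The log2 fold change was −0.26 (SE 0.07, 95% interval −0.43 to −0.09, limma adjusted p = 0.0185). The call did not hold without vehicle replicate 3 (−0.22, adjusted p = 0.0748) or without melatonin replicate 2 (−0.24, adjusted p = 0.0521).

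*Hadhb* (ENSMUSG00000059447, chr5:30359204-30389997, plus strand), the beta subunit with the thiolase, rose. It had 1533, 1596 and 1491 normalized counts with vehicle and 1804, 1848 and 1715 with melatonin. No sample of a group reached into the other, and the mean rose by 16.2%, from 1540 ± 52.7 to 1789 ± 67.6 (SD, n = 3). The log2 fold change was 0.22 (SE 0.08, 95% interval 0.04 to 0.39, limma adjusted p = 0.0415). This call was close to the threshold and was lost without vehicle replicate 1, 2 or 3 or melatonin replicate 2 (0.21, 0.24, 0.19 and 0.19, limma adjusted p = 0.117, adjusted p = 0.0783, adjusted p = 0.124 and adjusted p = 0.109). It was also lost without both samples of high *Xist* (0.23, adjusted p = 0.0552), with quantile normalization (0.18, adjusted p = 0.0696), with upper quartile scaling (0.17, adjusted p = 0.0914) and without the trend (0.22, adjusted p = 0.0755).

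The ratio of *Hadha* to *Hadhb* puts both moves into 1 value that does not depend on scaling. It was 1.65, 1.59 and 1.86 with vehicle and 1.22, 1.16 and 1.29 with melatonin. The groups were apart, all melatonin ratios being the lower, with means of 1.7 ± 0.14 and 1.22 ± 0.063 (SD, n = 3). The log2 difference was −0.47, with p = 0.1 in the exact permutation test (adjusted p = 0.12). The annotated genes overlap over 984 bases (chr5:30359204-30360187), reaching into the shared promoter sequence printed above, and *Hadha* also overlaps *Garem2* on the other strand. The library kit does not mark strand, so reads in that stretch cannot be assigned to either gene, and their part in the ratio was not tested.

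The rest of the pathway was read from 8 lists of 103 genes, of which 85 were tested. Of these, 26 were higher, 22 lower and 37 not called, with a median log2 fold change of 0.04, against 24.5% higher and 24.7% lower among all genes. The 7 tested of 9 other carnitine genes held 1 called gene, *Crot*, the carnitine octanoyltransferase of peroxisomes. It had 924, 967 and 769 normalized counts with vehicle and 3109, 2252 and 1995 with melatonin, a log2 fold change of 1.45 (SE 0.16, limma adjusted p = 0.00024).

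Of the 18 other mitochondrial oxidation genes, 6 were higher and 6 lower, against 24.5% and 24.7% of all genes, with a median log2 fold change of 0.09. *Acadsb*, the dehydrogenase for short branched chains, went from 432 ± 42.1 to 884 ± 92.3 normalized counts (SD, n = 3), a log2 fold change of 1.03 (limma adjusted p = 0.00025), and *Decr1*, which handles unsaturated chains, from 335 ± 5.29 to 626 ± 42.1 (0.90, adjusted p = 0.00024). Of the named genes of later steps, *Hadh*, *Acaa2* and *Hsd17b10* were lower and *Echs1* was not called. *Hadh*, which follows the short-chain dehydrogenase, had a log2 fold change of −0.41 (limma adjusted p = 0.0198) that missed the threshold without vehicle replicate 1, 2 or 3 (−0.40 to −0.42, adjusted p = 0.058 to 0.0594) and without the trend (−0.41, adjusted p = 0.0639). It was −0.27 without melatonin replicate 1 (adjusted p = 0.0093) and −0.71 without both samples of high *Xist*. *Acaa2*, the thiolase, had −0.31 (adjusted p = 0.0133), which was −0.18 without both samples of high *Xist* (adjusted p = 0.0751). *Hsd17b10*, on chromosome X, had −0.76 (adjusted p = 0.00024), and *Echs1*, the short-chain hydratase, 0.11 (adjusted p = 0.36), or 0.03 without melatonin replicate 3.

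The acyl-CoA dehydrogenases pass their electrons to the flavoprotein ETF and on to its oxidoreductase, and the genes of that chain did not move in 1 direction. *Etfb* went from 3528 ± 43.8 to 2495 ± 59.6 normalized counts (SD, n = 3), a log2 fold change of −0.50 (limma adjusted p = 0.00057). *Etfdh*, the oxidoreductase, went from 1933 ± 140 to 2698 ± 225, a log2 fold change of 0.48 (adjusted p = 0.00301). *Etfa*, the partner subunit of *Etfb*, had 2853, 2901 and 2648 with vehicle and 3042, 3515 and 3230 with melatonin. These groups did not overlap, but its log2 fold change of 0.22 had a limma adjusted p of 0.0536. It was called without melatonin replicate 1 (0.27, adjusted p = 0.0158) and in 5 of 11 other planned settings (0.22 to 0.26, adjusted p = 0.0145 to 0.0468).

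Genes around malonyl-CoA, the inhibitor of CPT1, were also measured. Of 10 tested, 2 were higher and 2 lower, against 24.5% and 24.7% of all genes. *Acaca*, which makes malonyl-CoA, went from 466 ± 81.2 to 219 ± 57.6 normalized counts (SD, n = 3; log2 fold change −1.10, limma adjusted p = 0.00223), and *Fasn*, which uses it, fell by 0.52 on the log2 scale (adjusted p = 0.00554). *Mlycd*, which breaks it down, had 178, 374 and 475 with vehicle and 962, 855 and 797 with melatonin (log2 fold change 1.45, adjusted p = 0.00438). *Acacb*, the isoform at the mitochondrial membrane, was low at 20.6 to 58.8 in all samples and was not called (0.03, adjusted p = 0.962, with a sign that changed between settings). *Prkaa2*, also called, outside the rule for named genes and named after its values were seen, had 0.933 to 5.25 with vehicle and 8.04 to 18.7 with melatonin.

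Of 16 tested genes that supply acyl-CoA, 7 were higher and 6 lower, against 24.5% and 24.7% of all genes. The number lower was 3 without vehicle replicate 2, without vehicle replicate 3 and with quantile normalization. *Cd36*, the fatty acid transporter, went from 339 ± 63.6 to 71.3 ± 42.5 normalized counts (log2 fold change −2.41, limma adjusted p = 0.00167, and −3.44 without both samples of high *Xist*), and *Fabp5*, a fatty acid binding protein, from 2865 ± 84.6 to 996 ± 333 (−1.58, adjusted p = 0.00055; SD, n = 3). *Acss1*, the mitochondrial acetyl-CoA synthetase, had 104, 110 and 94.4 with vehicle and 395, 193 and 178 with melatonin (1.21, adjusted p = 0.00719, and 1.94 without both samples of high *Xist*). Of 13 tested peroxisomal genes 7 were higher and 1 lower, against 24.5% and 24.7% of all genes, with a median of 0.34. Without vehicle replicate 1 the number higher was 3. *Amacr*, a racemase for branched chains, had a log2 fold change of 1.18 (adjusted p = 0.00089), and *Scp2*, a thiolase and lipid carrier, 0.47 (adjusted p = 0.0019).

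**Figure D5:**
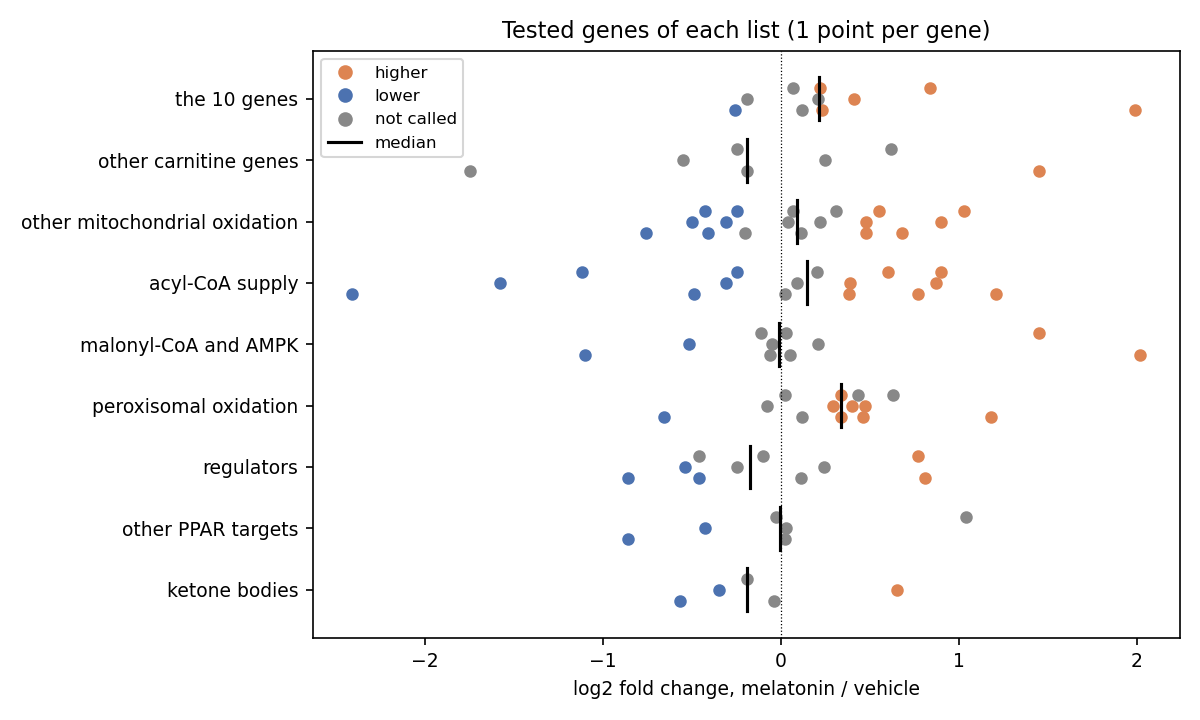
Log2 fold change of melatonin over vehicle (horizontal axis) of every tested gene in the 10-gene group and in the 8 lists around it, 1 point per gene, coloured by call, with a black line at each median. The 10 genes have a median of 0.21, peroxisomal oxidation 0.34, and the other carnitine genes −0.19.

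Of 10 tested known regulators of these genes, 2 were higher and 3 lower, against 24.5% and 24.7% of all genes. *Pparg*, a fatty acid receptor of ILC2s, went from 5424 ± 306 to 2979 ± 177 normalized counts (SD, n = 3; log2 fold change −0.86, limma adjusted p = 0.0001). *Rxrb*, one of the receptors that pair with PPARs, had a log2 fold change of 0.77 (adjusted p = 0.00147). *Foxo1* had 0.81 (adjusted p = 0.0254) and was 0.50 without vehicle replicate 1 (adjusted p = 0.0434). It missed the threshold without vehicle replicate 2 or melatonin replicate 1 or 2 (0.70 to 0.88, adjusted p = 0.0514 to 0.0753), without both samples of high *Xist* (1.03, adjusted p = 0.0737) and without the trend (0.81, adjusted p = 0.0822). *Ppargc1b*, a coactivator, had −0.54 (adjusted p = 0.0464) and missed it without vehicle replicate 1 or 3 or melatonin replicate 1 or 2 (−0.56 to −0.40, adjusted p = 0.0588 to 0.159), without both samples of high *Xist* (−0.50, adjusted p = 0.117) and in 5 other settings. *Esrra* had 453, 482 and 435 with vehicle and 402, 375 and 371 with melatonin and was not called (−0.25, adjusted p = 0.0675), although it was without melatonin replicate 1 (−0.29, adjusted p = 0.0404) and with quantile normalization, upper quartile scaling or sample weights (−0.32 to −0.29, adjusted p = 0.0271 to 0.037). *Ppara*, *Ppargc1a*, *Esrrb*, *Esrrg* and *Hnf4a* were not listed in the table.

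Of 6 tested other targets of PPARs, 2 were lower, against 24.7% of all genes. *Angptl4* had a log2 fold change of −0.86 (limma adjusted p = 0.00386). *Plin2*, the lipid droplet coat, had 16978, 17757 and 16990 normalized counts with vehicle and 17132, 11464 and 10663 with melatonin. Melatonin replicate 1 lay among the vehicle samples, and the log2 fold change of −0.43 (adjusted p = 0.0493) was −0.01 without the other two melatonin samples. It also missed the threshold without vehicle replicate 1, 2 or 3 or melatonin replicate 2 or 3 (−0.44 to −0.30, adjusted p = 0.0979 to 0.152) and in 8 of 11 other planned settings, with −0.28 under quantile normalization (adjusted p = 0.159). Of 5 tested ketone body genes, 1 was higher and 2 lower (*Bdh1*, −0.35, adjusted p = 0.0133, or −0.33 and 0.0513 without vehicle replicate 3, and the monocarboxylate transporter *Slc16a1*, −0.57, adjusted p = 0.00867, or −0.91 without both samples of high *Xist*).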

How the data were processed

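Bulk RNA sequencing of aILC2s was analysed in 3 melatonin and 3 vehicle samples. The authors aligned reads with STAR to mm39 in Partek Flow, quantified them to Gencode genes with the Partek E/M algorithm and scaled them by DESeq2's median ratios. These deposited values, each an estimated count over its sample's size factor, were handled as a signal. Between 63.2% and 65.6% were whole multiples of 1 read at a tolerance of 0.01, so whole reads were not recovered and no count test was used. The design of the study, treatment alone, was fitted with limma 3.58.1 in R 4.3.3 (trend) on log2(normalized count + 1). Genes with at least 10 in at least 1 sample entered the fit, adjusted by Benjamini-Hochberg over 14419 genes at 0.05. A fold change on this scale is understated for low genes. The code was also run on simulated counts with a fixed spread and few changed genes, unlike these data. That run does not measure the errors of the fit here. Total estimated counts were about alike between samples, and no 2 libraries agreed within counting noise. Ratios were tested by the exact two-sided permutation test.

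Names, GRCm39 positions and exon lengths came from Gencode M39, which named 16334 of 16381 identifiers. Software was scipy 1.17.1, numpy 2.4.6, pandas 2.3.3 and matplotlib 3.10.9. The 10 genes, the lists and the ratios were chosen with earlier results of these data known. Besides the 10 genes, the text names the 3 largest called changes of each list with a mean of at least 100 and a set of pathway genes whatever their values. Library numbers differ between the groups, so a library batch and the treatment cannot be told apart. Protein sequences were not used here. Single values of genes withheld for evaluation are left out.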

Additional observations from a re-analysis of the deposited data

How the results depend on the processing

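Alternatives were pseudocounts of 0.1 and 10, other filters and scalings, limma without trend, with sample weights or as voom, the replicate number as a block and each sample left out in turn. The fit without both melatonin samples of high *Xist* and the canonical transcript length were chosen after seeing the data. Of the 10 genes, 5 were higher and 1 lower. The number higher was 3 with upper quartile scaling, without trend and with the replicate block, and the number lower 2 with sample weights. Leaving out samples gave 3 to 6 higher and 0 to 2 lower, and for the lists 21 to 26 higher and 14 to 22 lower, with 14 lower without vehicle replicate 3. The shares of all genes called under the alternatives are not given, so shifts in these counts are not read as particular to the genes or lists. Deviations from the group mean had correlations of −0.054, 0.006 and −0.048 between samples of the same number. Between samples of different numbers they were −0.064 to 0.113. With 3 samples per group these values cannot decide whether the numbers pair the samples. With the block *Cpt1a* (0.23, limma adjusted p = 0.0517) and *Hadhb* (0.22, adjusted p = 0.0699) were not called, nor were *Foxo1* (0.81, adjusted p = 0.0512) and *Plin2* (−0.43, adjusted p = 0.0528), and the lists held 23 higher and 19 lower. *Acacb* changed sign with a pseudocount of 10 (−0.00), with upper quartile scaling (−0.02), without both samples of high *Xist* (−0.09) and across samples left out (−0.26 to 0.48), and *Crat* was 0.00 without both samples of high *Xist*. The gain of *Acads* among the dehydrogenases was 7.71 percentage points per kb and 6.03 with no division by length. The cause of these shifts was not tested, and the fits that leave samples out also have fewer of them. Over the alternatives, values of single genes kept direction and call in 639 cases, lost a call in 54, gained 1 in 19 and changed sign in 7, and counts of called genes in a list moved by over 1.5 times in 38 cases. With 3 samples against 3, ratios cannot reach a p under 0.1, which says nothing about their stability.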
